A study of Mus musculus with 4 samples.

Results

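Mitochondrial carriers are the proteins of the SLC25 family. Most of them sit in the inner mitochondrial membrane and exchange metabolites, nucleotides, phosphate or cofactors between the matrix and the cytosol. In skeletal muscle the best known members export newly made ATP in exchange for ADP, import phosphate for ATP synthesis and move reducing equivalents by the malate-aspartate shuttle. Open chromatin at the genes for these carriers was examined here in 4 mouse muscles with ATAC-seq, in which a transposase cuts accessible DNA. All peaks whose assigned gene name was Slc25a followed by a number were taken, except those of 1 gene that was left out. This gave 281 of 120839 peaks, with 67 in the extensor digitorum longus (EDL), 93 in quadriceps (Quad), 65 in soleus (Sol) and 56 in diaphragm (Dia). The peaks belonged to 41 of the 46 protein-coding Slc25a genes considered in the RefSeq annotation. The remaining 5 genes, Slc25a2, Slc25a37, Slc25a41, Slc25a43 and Slc25a54, were assigned no peak in any list.

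Each muscle was represented by 1 peak list from a library of wild-type C57BL/6 mice that is labelled as pooled, and the label does not say what was pooled. The methods describe the mice as young adult C57BL/6J males. The study profiled EDL and Quad, which are rich in fast glycolytic fibres, Sol, which is rich in slow oxidative fibres, and Dia, a mixed respiratory muscle, to ask how regulatory regions differ between them. A single list per muscle was analysed, without replicates, so no difference between muscles was tested and all comparisons describe these 4 lists. The lists held 30136 peaks for EDL, 40337 for Quad, 28784 for Sol and 21582 for Dia, and their inferred depths ranged from 78.1 to 105 M tags (M, mega). A peak's strength is given as its score percentile, its average rank among the peaks of the same list from the weakest (0) to the strongest (100). A longer list gives a peak of equal place from the top a higher percentile. Brackets after a percentile give the 95% counting interval that the inferred tags of that peak allow. As a check of the labels, the promoter of Myh4, a fast myosin gene, had a peak in EDL and Quad and none in Sol or Dia. When any assigned peak was counted, Myh4 had 1 each in EDL, Quad and Sol. Myh7, the slow myosin gene, had no promoter peak in any list, but was assigned 2 peaks in Sol and none elsewhere. Pecam1, an endothelial gene, had peaks in all 4 lists, with promoter peaks in EDL, Quad and Sol. The leukocyte gene Ptprc had no promoter peak and was assigned 1 peak in EDL and 1 in Quad. In whole muscle, a lower share of nuclei of 1 type and less accessible chromatin per nucleus cannot be told apart.

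The family divided mostly into genes with a promoter peak in every muscle, at strengths from low to high, and genes with no promoter peak at all, as the map of promoter percentiles shows. A promoter peak lay between 1 kb upstream and 100 bp downstream of a transcription start site (TSS) in the deposited annotation. Of the 46 genes, a promoter peak was listed for 30 (65.2%) by EDL, 29 (63.0%) by Quad, 26 (56.5%) by Sol and 28 (60.9%) by Dia. Among all 21887 protein-coding genes the corresponding shares were 38.6%, 42.3%, 38.4% and 37.8%. Promoter peaks in all 4 lists were found for 25 of the 46 Slc25a genes, against 30.8% of all protein-coding genes. Another 9 genes had one in 1 to 3 lists and 12 had none. The strongest peak of each gene had a median percentile of 83.7 for EDL, 91.1 for Quad, 90.6 for Sol and 84.3 for Dia. The medians of all promoter peaks in the same lists were 76.3, 81.3, 75.7 and 74.1. These take every promoter peak and not the strongest of each gene, so the choice of the strongest can raise the Slc25a medians alone.

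**Figure D1:**
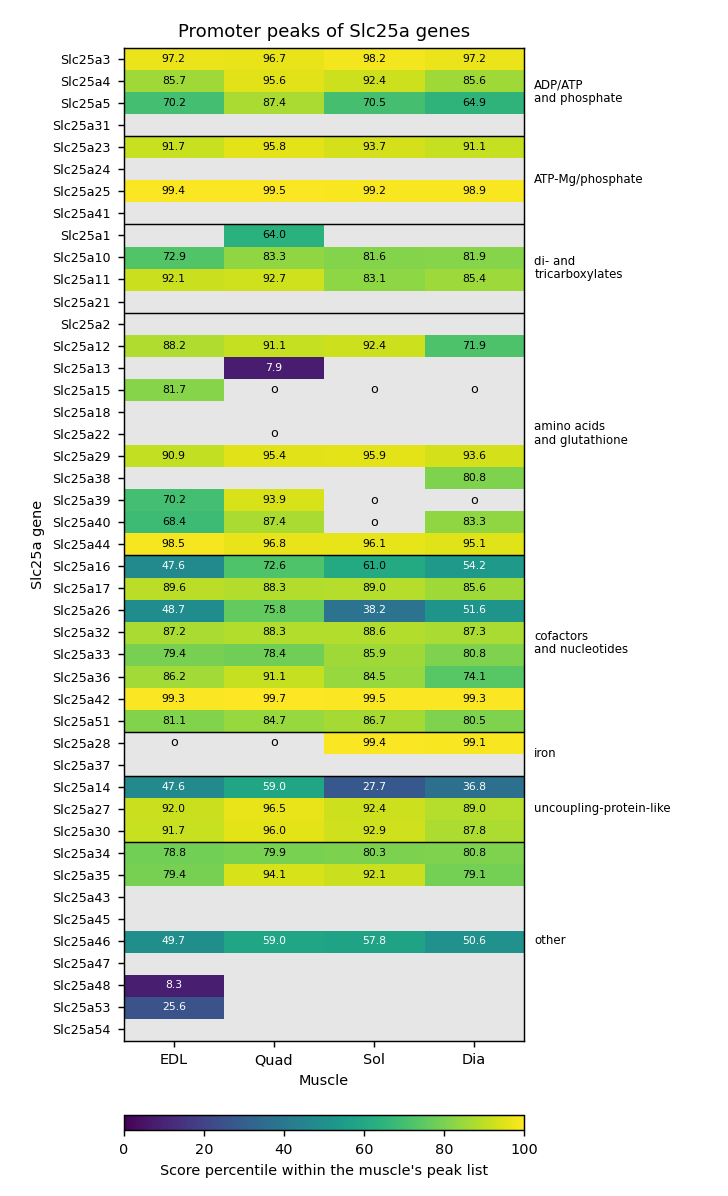
Score percentile of the strongest promoter peak of each Slc25a gene shown (rows, grouped by what they carry) in the 4 muscles (columns). Grey cells have no promoter peak assigned to the gene, and a circle marks a grey cell in which a peak with another gene name or annotation overlapped the window around a transcript start. The 3 uncoupling-protein-like carriers have a value in all 4 columns, between 27.7 (Slc25a14 in Sol) and 96.5 (Slc25a27 in Quad).

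The peaks that carry the account below are printed here so that their sequence can be read beside their values. They are the promoter peaks of Slc25a4, Slc25a3 and Slc25a42, the 2 distal peaks of Slc25a4 with the widest range of ranks between muscles, chosen after their values were seen, and a distal peak of Slc25a36 that was listed in Sol and Dia alone. Sequences are from GRCm38.p6, the assembly behind mm10, 5′ to 3′ on the plus strand, and each is named with the muscle whose peak it is. Capitals mark matches on either strand to CCAAT (NFY), CCGGAAG (ETS), TCAAGGTCA (ERR, the oestrogen-related receptors) and the MEF2 motif.
Slc25a4 promoter, Quad, chr8:46211024-46211212: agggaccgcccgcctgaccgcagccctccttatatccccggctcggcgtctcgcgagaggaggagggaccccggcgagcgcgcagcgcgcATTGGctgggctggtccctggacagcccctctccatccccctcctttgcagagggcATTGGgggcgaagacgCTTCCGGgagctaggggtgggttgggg
Slc25a4 at -9739 bp, Sol, chr8:46220698-46220904: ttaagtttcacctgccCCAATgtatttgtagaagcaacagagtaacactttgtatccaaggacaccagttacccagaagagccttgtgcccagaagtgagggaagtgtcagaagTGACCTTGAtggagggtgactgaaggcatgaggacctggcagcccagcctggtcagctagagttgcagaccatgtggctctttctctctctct
Slc25a4 at -25839 bp, EDL, chr8:46236797-46237005: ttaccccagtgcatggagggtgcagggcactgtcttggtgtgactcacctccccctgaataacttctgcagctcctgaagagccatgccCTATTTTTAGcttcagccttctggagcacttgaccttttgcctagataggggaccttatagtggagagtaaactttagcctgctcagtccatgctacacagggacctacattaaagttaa
Slc25a36 at -34494 bp, Sol, chr9:97145432-97145638: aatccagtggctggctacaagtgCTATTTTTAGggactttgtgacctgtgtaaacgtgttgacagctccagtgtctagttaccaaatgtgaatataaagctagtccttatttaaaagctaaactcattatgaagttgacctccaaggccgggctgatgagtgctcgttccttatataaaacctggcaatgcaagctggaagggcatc
Slc25a3 promoter, Sol, chr10:91124004-91124210: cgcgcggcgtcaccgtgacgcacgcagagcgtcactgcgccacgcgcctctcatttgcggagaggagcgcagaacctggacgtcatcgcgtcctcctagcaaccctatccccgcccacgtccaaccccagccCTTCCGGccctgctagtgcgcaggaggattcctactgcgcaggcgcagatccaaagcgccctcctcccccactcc
Slc25a42 promoter, Sol, chr8:70212255-70212461: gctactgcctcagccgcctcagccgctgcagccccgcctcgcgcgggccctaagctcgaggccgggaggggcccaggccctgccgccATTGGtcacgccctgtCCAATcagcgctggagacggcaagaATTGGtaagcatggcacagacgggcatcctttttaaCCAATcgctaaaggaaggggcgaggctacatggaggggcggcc

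The ADP/ATP and phosphate carriers supply the ATP synthase and the cytosol, and 3 of the 4 genes had a promoter peak in every muscle. Slc25a4 (gene ID 11739, chr8:46207168-46211062), which encodes the ADP/ATP exchanger that predominates in muscle and heart, had promoter percentiles of 85.7 for EDL (78.6 to 90.6), 95.6 for Quad (93.1 to 97.5), 92.4 for Sol (88.7 to 95.3) and 85.6 for Dia (78.6 to 90.8). Quad ranked above EDL and Dia beyond the counting intervals with whole lists. In lists cut to their 20000 highest-scored peaks, this promoter stood at 78.5 for EDL, 91.2 for Quad, 89.1 for Sol and 84.5 for Dia. Intervals were not computed for the cut lists. Slc25a3 (gene ID 18674, chr10:91116574-91124046), the phosphate importer, lay at 97.2 for EDL, 96.7 for Quad, 98.2 for Sol and 97.2 for Dia, and these 4 intervals overlapped. Slc25a5 (gene ID 11740, chrX:36795597-36798808), a second ADP/ATP exchanger that many tissues use, had weaker promoter peaks at 70.2 for EDL, 87.4 for Quad, 70.5 for Sol and 64.9 for Dia. The interval in Quad (80.6 to 92.0) lay just above those in EDL (57.5 to 80.1), Sol (57.4 to 80.5) and Dia (51.1 to 76.1). With 20000 peaks a list, the Slc25a5 promoter stood at 55.0 for EDL, 74.6 for Quad, 57.5 for Sol and 62.1 for Dia. Slc25a31, an ADP/ATP exchanger known mainly from the germ line, had no promoter peak. The 5 peaks assigned to it lay in introns or at the transcript end of the neighbouring gene Intu, at percentiles of 8.21 to 37.0.

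Slc25a4 also had 5 regions outside its promoter, 3 of them with peaks in all 4 lists, and the order of the muscles changed from region to region. Peaks of different lists that overlapped by at least 1 bp were joined into regions. The region at -9722 bp stood at percentile 69.6 for EDL (56.5 to 79.8), 52.1 for Quad (29.1 to 68.6), 80.3 for Sol (70.8 to 87.2) and 31.1 for Dia (7.20 to 52.1). Sol was thus highest, and its interval did not overlap those of Quad or Dia. When each list was cut to its 20000 highest-scored peaks, Sol was still highest there (71.7), but Quad (3.33) took the lowest place from Dia (25.7). The region at -25771 bp stood at 79.4 for EDL (69.3 to 86.1), 64.0 for Quad (47.3 to 76.7), 65.3 for Sol (51.5 to 76.8) and 25 for Dia (2.03 to 47.0). Here EDL was highest and Dia lay below all others, though its gap to Quad shrank from 38.99 to 8.30 points with the shortened lists. The region at -5912 bp had 63.2 for EDL, 72.6 for Quad, 74.2 for Sol and 52.5 for Dia, with intervals that all overlapped. A region in intron 1, at 448 bp, held peaks at 85.0 for EDL, 86.2 for Quad and 88.4 for Sol and had none for Dia. The weakest, at -30914 bp, was listed at 11.9 in EDL, 20.8 in Quad and 0.292 in Dia. Of the sequences printed above, the -9739 bp peak contains the ERR motif and the -25839 bp peak contains a MEF2 motif. ERR factors are nuclear receptors that act on mitochondrial genes and MEF2 factors are regulators of muscle genes, but whether either binds there was not measured.

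**Figure D2:**
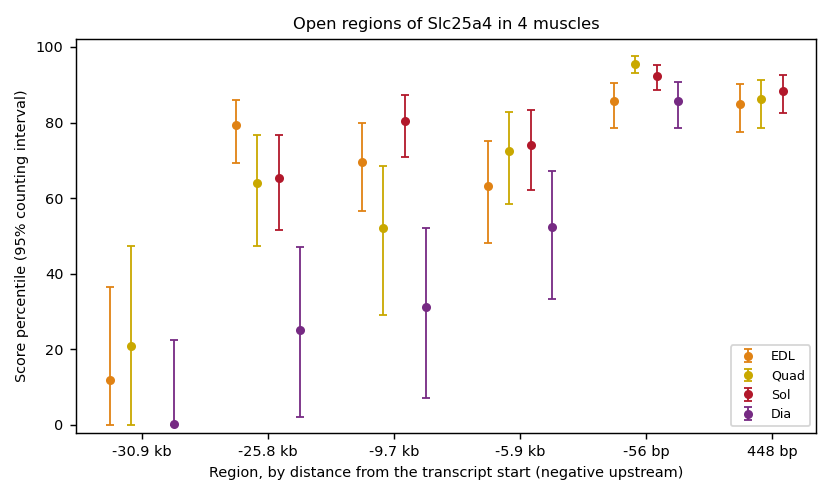
Score percentile (vertical axis) of the 6 open regions of Slc25a4, ordered by signed distance from the TSS (horizontal axis), in EDL, Quad, Sol and Dia. Points are single lists and bars are 95% counting intervals, with no replicates. Sol is highest at -9722 bp (80.3), EDL at -25771 bp (79.4), and Dia is lowest at both with the whole lists plotted. At -9722 bp Quad (3.33) is below Dia (25.7) when lists are cut to 20000 peaks.

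The malate-aspartate shuttle pairs an aspartate/glutamate exchanger with a 2-oxoglutarate/malate exchanger. Slc25a12 (gene ID 78830, chr2:71274270-71367781), the aspartate/glutamate exchanger of muscle and brain, had promoter peaks at 88.2 for EDL, 91.1 for Quad, 92.4 for Sol and 71.9 for Dia. Slc25a13 (gene ID 50799), the paralogue best known from liver, had a single promoter peak in Quad at percentile 7.89 (0 to 40.9), which rested on 32 tags. Slc25a11, the 2-oxoglutarate/malate exchanger, ranked at 92.1 for EDL, 92.7 for Quad, 83.1 for Sol and 85.4 for Dia. Its interval in Sol (74.5 to 89.1) overlapped that in EDL (88.3 to 94.9) and narrowly that in Quad (88.9 to 95.5). Intron 2 of Slc25a12 held a region at 13239 bp with percentiles of 65.8 for EDL, 60.1 for Quad, 61.8 for Sol and 25 for Dia. The interval in Dia was 2.03 to 47.0, and it lay below that in EDL (52.1 to 76.9). With lists of 20000 peaks, EDL stood 29.40 points above Dia there, Sol 26.00 and Quad 0.50.

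The ATP-Mg/phosphate carriers, which adjust the adenine nucleotide pool of the matrix, split evenly. Slc25a25 and Slc25a23 had promoter peaks in all 4 lists, whereas Slc25a24 and Slc25a41 had none. Slc25a25 had 4 promoter regions at 3 transcript starts. By mean percentile it was 1 of the 2 highest among genes with assigned promoter peaks in all 4 lists. The region at -544 bp of the most upstream start lay at 99.4 for EDL, 99.5 for Quad, 99.2 for Sol and 98.9 for Dia. At an internal start, the region at -88 bp ranged from 83.7 in Sol to 94.6 in EDL. The region at -22 bp of another start had 73.4 for EDL, 62.1 for Quad, 69.3 for Sol and 39.2 for Dia. In this last region the interval in Dia (17.6 to 57.2) lay below that in EDL (61.4 to 82.5). A further region at -112 bp was listed in Quad alone, at 94.0.

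All 9 carriers of cofactors and nucleotides had a promoter peak in every list. Slc25a42, which carries coenzyme A, had the highest mean promoter percentile (99.4) among genes with assigned promoter peaks in all lists. It lay at 99.3 for EDL, 99.7 for Quad, 99.5 for Sol and 99.3 for Dia. Its peak was centred at -137 bp in EDL and -77 bp in Sol, but at -500 bp in Quad and -542 bp in Dia, so that it formed 2 separate regions of 2 muscles each. Also among the 5 highest by mean were Slc25a25 (99.3), Slc25a3 (97.3) and Slc25a44 (96.6), which takes up branched-chain amino acids. The 5 lowest among genes with promoter peaks in all lists were Slc25a14 (42.8), Slc25a26 (53.6), Slc25a46 (54.3), Slc25a16 (58.9) and Slc25a5 (73.2). Slc25a26, which imports S-adenosylmethionine, reached 75.8 in Quad (63.5 to 84.5) and 38.2 in Sol (18.3 to 55.7). Slc25a14, an uncoupling-protein-like carrier, showed 59.0 in Quad and 27.7 in Sol, with overlapping intervals. Slc25a46, unusual in sitting in the outer membrane, ranged from 49.7 in EDL to 59.0 in Quad. With lists of 20000 peaks it ranged from 17.3 in Quad to 46.7 in Dia. The other 2 uncoupling-protein-like genes, Slc25a27 and Slc25a30, had promoter peaks between 87.8 and 96.5 in all 4 lists.

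Amino acid and glutathione carriers were the most mixed group, with 3 of 11 genes present in all lists, 5 in some and 3 in none. For several genes, here and among the iron carriers, the place of a missing promoter peak held a peak with another gene name or class in the annotation. At the start of Slc25a15, the ornithine/citrulline exchanger, EDL had a peak at 81.7, and the peaks of Quad (86.8), Sol (85.1) and Dia (87.3) in the same region were assigned to 1810012K16Rik. The start of Slc25a40 held a Sol peak at 71.6 that was assigned to Dbf4. Slc25a28, an iron carrier, had promoter peaks in Sol (99.4) and Dia (99.1), while those of EDL (99.4) and Quad (99.8) in the same region were assigned to BC037704. Slc25a39, a glutathione carrier, had a region at 93.3 for EDL, 93.9 for Quad, 89.0 for Sol and 92.8 for Dia, which was annotated as promoter in Quad, at -1000 bp, and as intergenic in the other lists, at -1066 to -1102 bp. Slc25a38, a glycine carrier, had its Dia peak at 1 bp from the TSS (80.8), whereas the peaks of EDL (83.7), Quad (89.6) and Sol (80.3) were centred 337 to 352 bp downstream, in intron 1. A further count took any peak at a transcript start, whatever its assigned gene. By that count, 29 of the 46 Slc25a genes had one in all 4 lists, against 40.7% of the 21000 protein-coding genes with a curated transcript. EDL had such a peak at 31 of the 46 Slc25a genes, Quad at 32, Sol at 29 and Dia at 30. The shares of all genes were 46.6%, 50.6%, 46.6% and 46.2%. Of the Slc25a genes, 11 had none in any list.

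A few more promoter peaks were listed in 1 muscle each. Slc25a48 and Slc25a53 had peaks in EDL alone, at 8.31 and 25.6. Slc25a1, the citrate exporter, had one in Quad alone at 64.0, and Slc25a13 was described above. The 12 genes without an assigned promoter peak were Slc25a2, Slc25a18, Slc25a21, Slc25a22, Slc25a24, Slc25a31, Slc25a37, Slc25a41, Slc25a43, Slc25a45, Slc25a47 and Slc25a54. Slc25a22, a glutamate carrier, had peaks close to its start that were annotated to the transcript end of Pidd1, at 172 bp in Quad (78.9) and, overlapping it, in EDL (57.9).

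Regions differed by class in how many muscles shared them. The 281 peaks formed 118 regions, 39 at promoters and 79 outside. All 4 lists held a peak in 30 promoter regions (76.9%, 95% Wilson interval 61.7 to 87.4), against 66.1% of all 11743 promoter regions. Outside promoters this was so for 14 regions (17.7%, 10.9 to 27.6), against 16.0% of all 42140 regions. The background share lay inside the interval in both classes. Outside promoters, 25 regions were found in Quad alone (31.6%, against 26.9% of all such regions), 5 in EDL alone (6.33%, against 7.96%), 7 in Sol alone (8.86%, against 10.4%) and 2 in Dia alone (2.53%, against 5.27%). EDL and Quad together shared 7 regions that were absent from the other lists (8.86%, against 9.57%), and Sol and Dia shared 2 (2.53%, against 1.34%).

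Peaks outside promoters numbered 35 for EDL, 60 for Quad, 37 for Sol and 26 for Dia. Their median percentile was 55.2 for EDL, 52.7 for Quad, 61.8 for Sol and 37.4 for Dia, and the medians of all peaks outside promoters were 38.3, 40.0, 38.2 and 34.1. The spread within each list was wide, as the plot of promoter and outside peaks shows. Median distance from the TSS was 21167 bp for EDL, 13753 bp for Quad, 25096 bp for Sol and 23433 bp for Dia.

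**Figure D3:**
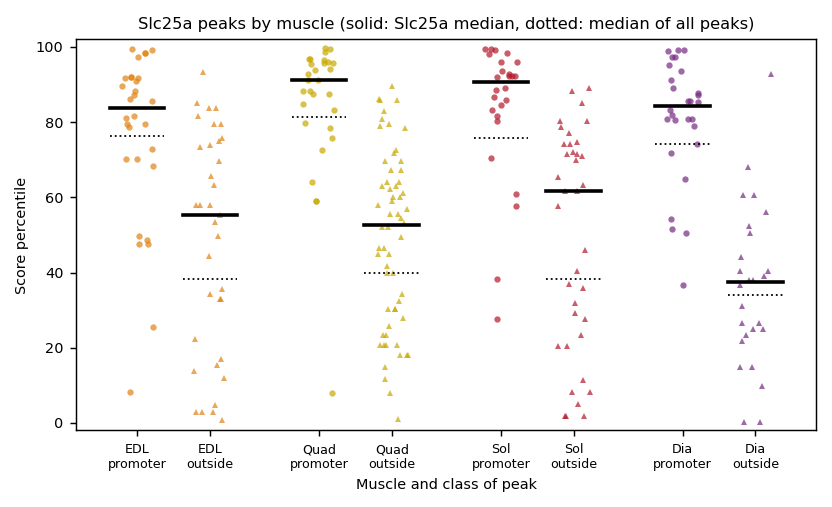
Score percentile (vertical axis) of the strongest promoter peak of each Slc25a gene (circles) and of every Slc25a peak outside promoters (triangles) in each muscle. Solid lines are the medians of the points and dotted lines the medians of all promoter or all outside peaks of the list. For promoters, the dotted lines take every peak and not the strongest of each gene. The Slc25a medians are above the dotted lines in all 8 columns, with the narrowest gap outside promoters in Dia (37.4 against 34.1).

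The outside regions, assigned to the nearest TSS, were spread unevenly over the genes, and the spread over all genes was not counted for comparison. Slc25a33 (gene ID 70556, chr4:149744036-149774267), which carries pyrimidine nucleotides, had 13, followed by Slc25a12 and Slc25a51 with 6 each and Slc25a4, Slc25a25 and Slc25a36 with 5 each. Those of Slc25a33 ran from -73383 bp to 15511 bp, and 3 of them were present in all 4 lists. Its region in intron 1, at 8811 bp, had percentiles of 83.7 for EDL (75.6 to 89.3), 71.9 for Quad, 72.1 for Sol and 38.1 for Dia (15.8 to 56.4). Its region at -56478 bp was highest in Sol, at 74.2 (62.2 to 83.2), with 55.2 in EDL, 55.7 in Quad and 40.5 in Dia. A region at -46442 bp was more even, with 73.4 for EDL, 78.4 for Quad, 69.9 for Sol and 60.7 for Dia. Slc25a51, the NAD carrier, had 2 regions in all 4 lists, both in introns of the neighbouring gene Shb, at -43830 bp and -58895 bp. The first was highest in Sol (74.7) and the second in EDL (79.4).

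**Figure D4:**
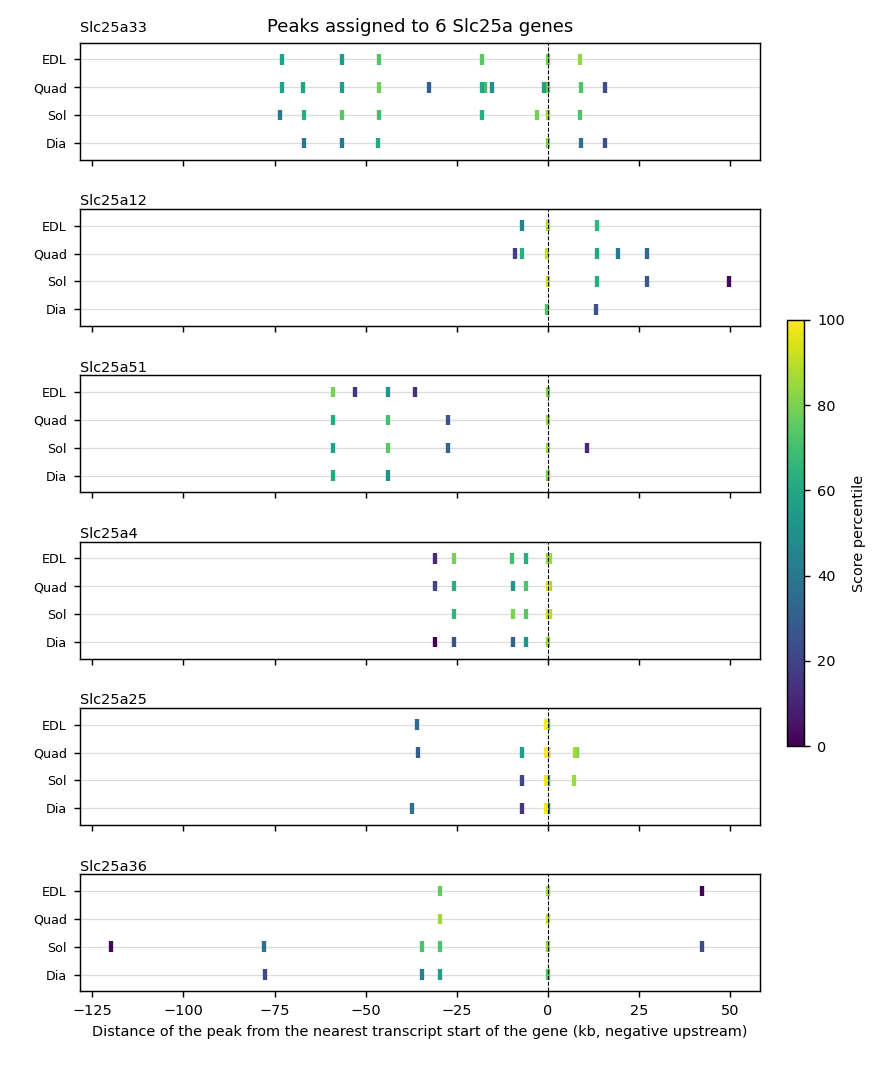
Position of each peak relative to the nearest start of its gene (horizontal axis, kb, negative upstream) for the 6 Slc25a genes with most regions outside promoters, with 1 row per muscle. Colour gives the score percentile. Slc25a33 has 13 outside regions between -73383 and 15511 bp, and Slc25a36 has 2 that occur in Sol and Dia alone.

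Slc25a36 (gene ID 192287, chr9:97075281-97111041), a second pyrimidine nucleotide carrier, held both regions that were listed in Sol and Dia alone. The region at -34494 bp stood at 71.6 in Sol (59.0 to 81.5) and 44.1 in Dia (22.5 to 61.1). The printed Sol peak contains a MEF2 motif, which lies outside the Dia peak (start 97145494). The region at -77718 bp stood at 35.8 in Sol and 21.7 in Dia. A neighbouring region at -29705 bp was present in all 4 lists, at 75.8 for EDL, 85.9 for Quad, 71.6 for Sol and 56.0 for Dia. Of the 7 regions of EDL and Quad alone, the highest was at 172 bp of Slc25a22 (57.9 and 78.9), and the next were at -9307 bp of Slc25a30 (49.7 and 64.0), -7115 bp of Slc25a12 (44.3 and 63.0), -72935 bp of Slc25a33 (57.9 in both) and 21667 bp of Slc25a18 (33.0 and 46.5).

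At regions that 2 lists shared, differences of at least 25 percentile points were counted. Against Dia and with whole lists, they ran one way in the Slc25a regions, as they mostly did over all regions. Of 47 regions shared by EDL and Dia, 6 were higher in EDL and 0 in Dia, against 12.7% and 2.93% of all shared regions. Of 51 shared by Quad and Dia, 9 were higher in Quad and 0 in Dia, against 20.9% and 1.18%. Of 49 shared by Sol and Dia, 8 were higher in Sol and 0 in Dia, against 12.4% and 2.18%. These 23 differences fell on 14 regions of 9 genes, 13 of them outside promoters and 1 at an internal start of Slc25a25. The largest was at -20906 bp of Slc25a30, at 81.7 in EDL against 26.5 in Dia, followed by -25771 bp of Slc25a4 between the same muscles (79.4 against 25) and by Quad at the Slc25a30 region (80.8). The promoters of the muscle genes Ckm and Acta1 also ranked lower in Dia (62.1 and 69.3) than in EDL (93.0 and 92.0) and Quad (95.3 and 93.2). In Sol, Ckm ranked at 90.9 and Acta1 had no promoter peak. The promoter of the endothelial gene Pecam1 stood at 46.6 in EDL, 52.1 in Quad and 41.6 in Sol and had no peak in Dia. Whether the lower ranks of these genes in Dia bear on the Slc25a differences was not tested.

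With whole lists, differences among the other 3 muscles were fewer. With lists cut to 20000 peaks, as given below, this contrast was not clear. Counts in 1 direction then reached 7 without Dia (EDL over Quad) and 6 with it (EDL over Dia). EDL and Quad shared 57 regions, with 0 higher in EDL (1.86% of all shared regions) and 3 higher in Quad (12.9%), namely the promoters of Slc25a16 and Slc25a26 and a region of Slc25a18 inside Cecr2. EDL and Sol shared 50, with 0 higher in either, against 5.46% higher in EDL and 5.78% higher in Sol. Quad and Sol shared 55, with 5 higher in Quad (12.8%) and 1 higher in Sol (3.07%). The 5 were Slc25a5 at 8714 bp (53.3 against 8.21), Slc25a18 at -37022 bp (45.0 against 1.85), the Slc25a26 promoter (75.8 against 38.2), Slc25a25 at -7014 bp (55.7 against 20.5) and the Slc25a14 promoter (59.0 against 27.7). The 1 higher in Sol was Slc25a4 at -9722 bp (52.1 in Quad against 80.3 in Sol). The next in that direction fell short of 25 points, at -56478 bp of Slc25a33 (55.7 against 74.2), in intron 1 of Slc25a5 (7.89 against 20.5), at 14081 bp of Slc25a47 (18.0 against 29.3) and at the Slc25a33 promoter (78.4 against 85.9). Quad has the longest list, which bears on these percentiles. When each list was cut to its 20000 highest-scored peaks, a choice made after seeing the data, 7 regions were higher in EDL than in Quad (8.04% of all shared regions) and 1 in Quad (6.82%), and 6 were higher in Sol than in Quad (9.44%) and 1 in Quad (6.44%). Against Dia, Quad was then higher at 1 region (4.95%) and Dia at 3 (11.4%). EDL was higher than Dia at 6 (6.37%) and Dia at 3 (11.7%), and Sol was higher than Dia at 5 (6.01%) and Dia at 1 (9.38%). EDL was higher than Sol at 1 (6.29%) and Sol at 2 (7.83%). The regions of Slc25a34 and Slc25a5 that had been higher in Quad than in Dia turned direction, with differences of -1.50 and -2.38 points.

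Promoter windows of 200 bp centred on the peaks were searched on both strands for 7 short motifs, of which none contains another. CCAAT, the NFY box, was present in 50% of Slc25a promoter windows in EDL (33.6 to 66.4), 54.5% in Quad, 60.7% in Sol and 63.3% in Dia, against 36.7%, 34.4%, 36.3% and 36.4% of all promoter windows. It occurred at 17 genes, and the Slc25a42 promoter printed above has 4 matches. The SP/KLF motif GGGCGG was in 75.0%, 78.8%, 78.6% and 73.3% of Slc25a windows, against 61.6%, 62.8%, 62.7% and 63.7% of all. The ETS motif CCGGAAG was in 21.9%, 21.2%, 25% and 26.7%, against 17.4%, 16.4%, 17.6% and 17.4%, and it occurred at 8 genes, among them Slc25a3 and Slc25a4. For both SP/KLF and ETS, the background share lay inside the Slc25a interval in every list. The NRF1 motif GCGCATGCG, the YY1 motif AAGATGGCG, the ERR motif and the MEF2 motif had 0 matches in Slc25a promoter windows, where the upper bound was at most 12.1% in any list. In all promoter windows these 4 motifs were found in between 0.0875% (ERR in Quad) and 3.06% (NRF1 in EDL). Windows of the same promoter recur in the 4 lists, so the 4 shares are not independent of each other. A gene can also give several windows to 1 list, as Slc25a25 did, and all of its 13 promoter windows held CCAAT. The intervals treat such windows as independent. Outside promoters, the ERR motif was present at the -9739 bp peak of Slc25a4 and at no other Slc25a gene, with 1 window per list. Its shares, in the same order of lists, were 2.86%, 1.67%, 2.70% and 3.85%, against 0.379%, 0.370%, 0.495% and 0.419% of all outside windows. Genes with the MEF2 motif there included Slc25a4, Slc25a30 and Slc25a36. MEF2 shares were 5.71%, 6.67%, 8.11% and 3.85%, against 5.70%, 4.46%, 5.82% and 4.29% of all outside windows. For MEF2, the background share lay inside the Slc25a interval in every list. A match is a description of these letters and not a measured binding site.

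**Figure D5:**
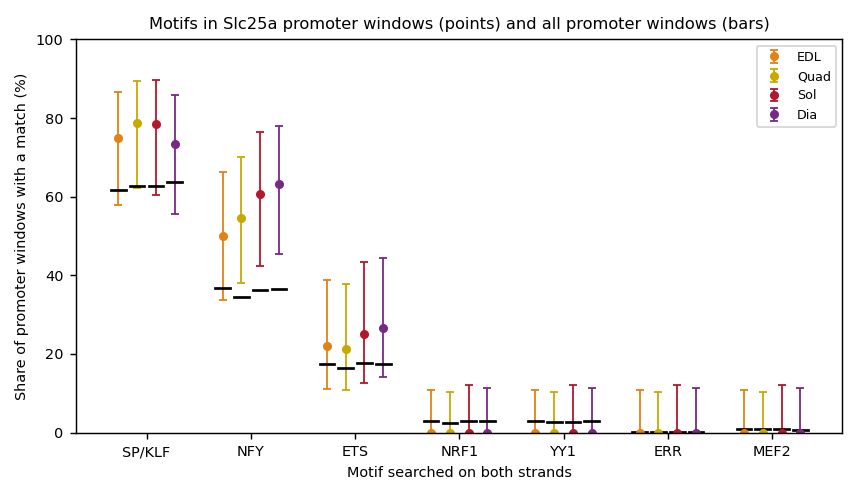
Share of Slc25a promoter windows of 200 bp with each motif (points, with 95% Wilson intervals that cover counting error only) by muscle, beside the share in all promoter windows of the list (black bars). The points for NFY lie between 50% and 63.3% and the bars between 34.4% and 36.7%.

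Other genes of mitochondrial membrane transport were read from lists that were set apart from the family. Of 5 family members with other names, Ucp3, the muscle uncoupling protein, and Mtch1 and Mtch2 of the outer membrane had promoter peaks in all lists, Ucp2 in 2 lists and Ucp1, the brown fat protein, in none. Ucp3 had percentiles of 70.2 for EDL, 65.8 for Quad, 62.5 for Sol and 48.7 for Dia. Of 18 other transport genes, 8 had a promoter peak in all 4 lists, 8 in 1 to 3 and 2 in none. The pyruvate carrier subunit gene Mpc2 was the strongest, from 97.1 in Dia to 99.5 in Quad, and Mcu, the calcium uniporter pore, ranged from 91.9 in Dia to 95.3 in Quad.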

How the data were processed

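ATAC-seq was performed by the authors on nuclei from pulverised frozen muscle. Reads were aligned to mm10 with Bowtie2 at default settings, at most 1 tag per start position was kept, and HOMER called peaks of fixed width per library (factor style) and annotated each to the nearest TSS. Whether read ends were shifted for the transposase, or mitochondrial reads removed, is not given in the sources used here. The deposited score is the authors' signal per peak, a tag count scaled by library size. The deposited lists also hold positions, gene names and other annotation.

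Members and lists were chosen with earlier results of these data known. Percentiles are average ranks within a list. Tags were inferred as whole multiples of the smallest score step, which fitted 100% of scores below 10 within 0.0051. Depths assume a scale of 10 M tags (M, mega). The lowest-scored peaks then held 25 to 36 tags, and exact Poisson intervals on tags were converted to percentiles. Shares carry Wilson intervals. All intervals cover counting error only. A missing peak means that none was listed, not that the DNA was closed. Gene starts came from RefSeq (GRCm38.p6), and the start implied by the deposited distance lay within 100 bp of RefSeq for 97.6% to 98.0% of peaks. The genes described were those fixed by rule: the ADP/ATP, phosphate and malate-aspartate carriers, the 5 highest and lowest promoters, genes with promoter peaks in some or no lists, those with most outside regions, outside regions in all lists or in 2 muscles alone, and the 5 largest differences between Quad and Sol in each direction. Apart from the gene that the rule left out, the values of some items are not reported here. Python 3.11.15, pandas 2.3.3 and SciPy 1.17.1 were used, and the scripts were tested on simulated data.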

Additional observations from a re-analysis of the deposited data

How the results depend on the processing

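Of 43 other settings tried for 14 counts, medians and shares, 35 stayed close to the main value, which means within its 95% binomial interval for medians and shares and within 1.5 times for counts. Ranking promoter peaks against promoter peaks alone, instead of all peaks, gave medians of 62.2 for EDL, 71.7 for Quad, 75.9 for Sol and 68.0 for Dia. With lists cut to their 20000 top-scored peaks, the Quad promoter median was 82.1, and peaks outside promoters numbered 23 in EDL and 32 in Quad. At 50% reciprocal overlap, 10% of Slc25a regions outside promoters were present in all 4 lists. The share over all outside regions is not given at this setting, so this value cannot be set against the background share above.

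The differences of at least 25 points depended on list length, an alternative added after seeing the data. With 20000 peaks a list, EDL was higher than Quad at 7 of 51 shared regions and Quad at 1, EDL was higher than Sol at 1 of 45 and Sol at 2, and Quad was higher than Sol at 1 of 46 and Sol at 6. Dia was then higher than EDL at 3 of 43, than Quad at 3 of 47 and than Sol at 1 of 44, against 11.7%, 11.4% and 9.38% of all shared regions, while Quad was higher than Dia at 1 and Sol at 5. Of the 32 differences counted with whole lists, 26 could be recomputed, 24 kept their direction and 15 stayed at 25 points or more. Of the 23 against Dia, 22 could be recomputed, 20 kept their direction and 12 stayed at 25 points or more. At Slc25a4, Sol then stood 46.00 points above Dia at -9722 bp and 31.10 points above it at -25771 bp. No paired analysis was possible because 1 list per muscle was analysed. With 25 to 36 tags in the lowest-scored peaks, ranks near the bottom of a list are uncertain, as for Slc25a13 and Slc25a48.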
